A study of Mus musculus with 6 samples.

Results

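Integrins, laminins and the complex of integrin-linked kinase were examined in the hearts of male hSRY-ON and hSRY-OFF pups. Their probes were taken by gene symbol, as the integrin alpha and beta names, the laminin chain names, and Ilk, the parvins and Lims1 and Lims2. The selection held 64 of the 25697 probes and 42 of the 18138 gene symbols on the array. It comprised 40 probes of 24 integrin subunits, 9 probes of 8 laminin chains, 9 probes of 5 genes of the kinase complex, and 6 probes of 5 other genes that carry an integrin or ILK name.

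Total RNA from the hearts of 3 hSRY-ON and 3 hSRY-OFF males of strain FVB (FVB/N in the methods) at postnatal day 6 (P6) was hybridized to 1 single-colour BeadChip array per heart. The hSRY-ON pups carried the Signalox-hSRY transgene, in which Cre recombination places a FLAG-tagged human SRY-IRES-EGFP cassette under the ubiquitous CAG promoter, as a single copy at the H11 locus. Recombination came from Cre of the oocytes of Ddx4-Cre mothers, so that the transgene was activated in the early embryo and not in the heart alone. By the methods, the hSRY-ON mice chosen for the arrays did not themselves carry the Ddx4-Cre transgene. The hSRY-ON pups were growth-retarded and lacked milk in the stomach, and some had died before P6. The study also reports white patches on selected hSRY-ON hearts, and TUNEL-positive areas. It does not say whether the arrayed hearts had them. The methods describe hSRY-OFF animals as carrying the transgene without recombination, while the study's account of its littermate controls gives Ddx4-Cre only or no transgene, so the exact genotype of the control hearts is uncertain. The human transgene was not measured here, and mouse Sry itself gave no signal over background in any of the 6 hearts. All 8 cardiomyocyte genes of the marker list on the array were detected in both groups.

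Integrins are heterodimers of an alpha and a beta subunit that hold a cell to its extracellular matrix. In the cardiac myocyte, the alpha7 beta1 integrin binds the laminin chains of the basement membrane, and the complex of ILK, PINCH (the Lims genes) and parvin links the cytoplasmic tail of the beta subunit to actin. The laminins are trimers of an alpha, a beta and a gamma chain, and those with alpha2 or alpha4 chains surround muscle fibers and vessels.

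Transcripts of Itga7 and of melusin (Itgb1bp2), a muscle protein that binds the beta1 tail, were several-fold lower in hSRY-ON hearts, as was Itgb6, the beta subunit of an epithelial integrin that activates latent TGF-beta. Transcripts of Itgbl1, Itga11, Itgav, Itga3 and Ilk were higher. Probes with a detection p-value below 0.05 in 3 or more hearts were tested, and a probe was called at an adjusted p under 0.05 by limma with Benjamini-Hochberg adjustment over all 12970 tested probes. Of the 64 probes, 36 were tested, for 26 genes, and 14 of these were called, 8 higher in hSRY-ON for 6 genes and 6 lower for 4 genes. This was 38.9% of the tested member probes, against 27.5% over all tested probes of the array. By direction, 22.2% were higher and 16.7% lower, against 13.8% and 13.7% over all tested probes. That balance rests on the scaling of the arrays, since 731 probes were higher and 1166 lower without normalization between arrays, and 2357 and 1229 after scaling to the median of detected probes, against 1788 and 1779 here. Without normalization the calls of Ilk, Itgav, Itga3, Itgb1 and Lamb2 and that of 1 probe of Itga11 were lost, with the directions kept. The values of the groups did not overlap for 21 of the 36 probes, against 45.2% of all tested probes. A probe that passed the filter through 1 group only was bound to differ, and among the 32 member probes above background on all 6 arrays 11 were called (34.4%), against 27.4% of such probes of the array. The hearts were measured in bulk, so that fewer cells of a type and less RNA per cell cannot be told apart.

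**Figure D1:**
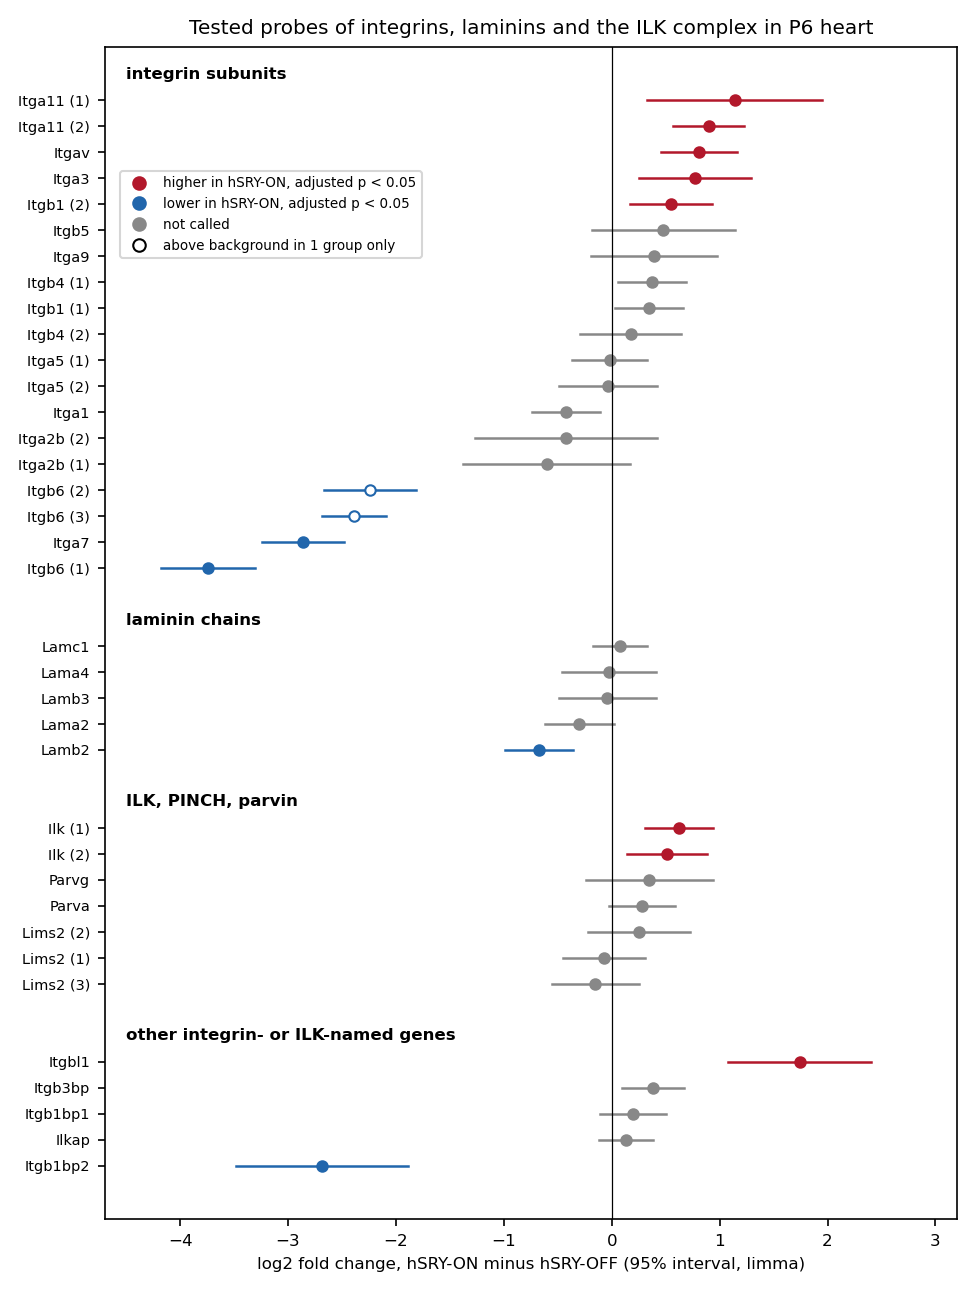
Log2 fold change (hSRY-ON minus hSRY-OFF, horizontal axis) of the 36 tested probes with its 95% interval from limma, grouped by family. A number after a gene orders its probes from the highest mean signal. Open circles mark probes above background on no array of 1 group, and these points are fitted differences, larger than the bounds given in the text. The 3 probes of Itgb6 and the probes of Itga7 and Itgb1bp2 lie at the far left, from -3.74 to -2.24, and Itgbl1 reaches 1.74 on the right.

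The sequence around the transcript starts is shown for Itgb6, the gene of the probe with the largest fall among the members. RefSeq windows from 250 bases before to 50 bases after a transcript start (GRCm38.p6) were matched by symbol for 27 of the 42 genes, as 34 windows, and for 8 of the 10 called genes. Itgb6, on the minus strand of chromosome 2, has windows for 2 starts, and capitals mark the letters AACAAT on either strand (ATTGTT as read here), a core sequence bound by the HMG box of SRY and SOX proteins.

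Itgb6, chr2:60722554-60722853, minus strand: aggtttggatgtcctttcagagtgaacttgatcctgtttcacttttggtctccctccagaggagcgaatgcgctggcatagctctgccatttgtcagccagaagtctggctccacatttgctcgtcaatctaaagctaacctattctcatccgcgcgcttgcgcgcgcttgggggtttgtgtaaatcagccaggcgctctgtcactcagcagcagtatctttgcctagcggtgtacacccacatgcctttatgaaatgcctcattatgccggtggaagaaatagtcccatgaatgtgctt

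Itgb6, chr2:60673644-60673943, minus strand: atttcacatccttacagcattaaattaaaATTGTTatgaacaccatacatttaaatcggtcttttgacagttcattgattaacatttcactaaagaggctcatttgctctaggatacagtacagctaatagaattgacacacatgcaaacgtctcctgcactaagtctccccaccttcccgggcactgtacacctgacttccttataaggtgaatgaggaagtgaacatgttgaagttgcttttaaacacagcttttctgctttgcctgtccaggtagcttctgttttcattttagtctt

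The first window held no such letters, and the second held them once, from base 30 of the window. Its GC content was 38.3%, and that of the first window was 50.3%. These letters were found in 3 of the 34 member windows, in Itgb6, Itgax and Lims1, and in 10.7% of the 32851 windows of all genes. Among the 11 windows of the called genes, the Itgb6 window was the only one with the motif. A match of 6 letters is a description of the sequence, and the arrays do not measure which start was used.

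The beta6 subunit pairs with alphaV, and 1 of its probes gave the largest fitted fall of the families. On probe ILMN_2805372 the normalized log2 intensities were 9.06, 9.23 and 9.22 in the hSRY-OFF hearts and 5.84, 5.25 and 5.20 in the hSRY-ON hearts. The groups stood far apart, and the probe was above background on all 3 hSRY-OFF arrays and on 1 hSRY-ON array. The fitted difference was -3.74 (SE 0.19, adjusted p = 4.5e-05 by limma), or 13.3-fold, but its size rests on hSRY-ON values at or near background and was -1.90 without background correction. On ILMN_2604243 the values were 7.07, 6.76 and 7.05 against 4.54, 4.58 and 4.60, and on ILMN_2805375 they were 6.98, 7.35 and 6.70 against 4.62, 4.92 and 4.79. Both of these probes were above background in every hSRY-OFF heart and in no hSRY-ON heart, so they give only lower bounds. The bounds were set against the dimmest signal with a detection p-value below 0.05 on each array. By them, Itgb6 was at least 3.10-fold and at least 3.21-fold lower in hSRY-ON hearts. The limma adjusted p-values, 5.5e-05 and 0.00030, belong to the fitted differences of -2.39 and -2.24 and not to the bounds. Both probes were bound to differ, as they passed the filter through the hSRY-OFF hearts alone. These bounds hold for background-corrected intensities, and the fitted differences of both probes were -0.79 and -0.73 without the correction. Its partner Itgav moved the other way, from 7.17, 7.35 and 7.49 to 8.34, 7.94 and 8.15, a rise of 0.81 (SE 0.15, limma adjusted p = 0.0072) without overlap. Of the other beta subunits that can pair with alphaV, Itgb5 was not called (0.48, 95% interval -0.19 to 1.14), Itgb3 and Itgb8 were above background on no array, and Itgb1 is described below.

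Itga7 encodes the laminin-binding alpha subunit of muscle. Its log2 intensities were 9.93, 10.03 and 10.15 in hSRY-OFF hearts and 7.35, 6.86 and 7.32 in hSRY-ON hearts. No hSRY-ON heart came within 2 log2 units of a control heart, and the difference of -2.86 (SE 0.16, limma adjusted p = 6.0e-05) corresponds to 7.28-fold. Without background correction it was -2.02, also called. Melusin, the product of Itgb1bp2, is found in striated muscle, and its values were 12.02, 11.70 and 11.84 against 9.03, 8.49 and 9.99. All 3 hSRY-ON hearts were below the controls, with replicate 3 the nearest to them, and the difference was -2.69 (SE 0.34, limma adjusted p = 0.0015), or 6.44-fold. Beside these falls, 4 of 8 cardiomyocyte genes were lower in hSRY-ON hearts, or 50%, against 13.7% of all tested probes. None of these 8 genes was higher by limma, also at an unadjusted p under 0.05 (0 genes). Their summed level, in units of 1000 of the normalized intensity here and for the lists below, was 170 to 183 in hSRY-OFF against 164 to 172 in hSRY-ON hearts, and Pln, which encodes phospholamban, fell by 1.47 on the log2 scale, the most of the list. The sum is made up mostly of Myl2, Myl3, Nppa and Myh6, of which the first 3 lay at 15.25 to 15.42 in every heart, at the top of the signal range, while Tnni3 (-1.13) and Ryr2 (-1.09) fell with Pln. Of 4 skeletal muscle genes on the array, Tnnt3 and Myod1 were above background on no array, Myh8 fell by 1.42 and Myog fell by 0.56, with summed levels of 0.297 to 0.443 in hSRY-OFF against 0.153 to 0.236 in hSRY-ON hearts. The part of these cells in the falls of Itga7 and Itgb1bp2 was not tested.

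The beta1 subunit, with which alpha7 pairs, did not fall with it. Probe ILMN_2609304 of Itgb1 gave 8.66, 8.64 and 8.88 in hSRY-OFF against 9.58, 9.17 and 9.09 in hSRY-ON hearts. It was higher in each hSRY-ON heart, by 0.55 on average (SE 0.16, limma adjusted p = 0.041). The second probe, ILMN_2789077, gave 9.12, 9.01 and 8.85 against 9.51, 9.29 and 9.21, a difference of 0.34 (95% interval 0.03 to 0.66, limma adjusted p = 0.10) that was not called. Both probes were therefore without overlap between the groups, and 1 of 2 passed the test. The call of ILMN_2609304 was lost without hSRY-OFF replicate 1 (adjusted p = 0.12), hSRY-OFF replicate 2 (0.11), hSRY-ON replicate 1 (0.11) or hSRY-ON replicate 2 (0.064).

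Itga5, which encodes the fibronectin-binding alpha subunit of the embryonic heart, showed no difference that could be seen at this precision. On ILMN_2849449 its values were 10.49, 10.30 and 10.70 against 10.34, 10.45 and 10.63, and on ILMN_2670172 they were 9.25, 8.71 and 9.19 against 8.71, 9.20 and 9.13. The groups overlapped on both probes. The 95% intervals were -0.37 to 0.32 and -0.49 to 0.42, which leave room for changes of that size. The single probe of Itga6, another laminin-binding subunit, was above background on no array.

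Among the collagen-binding subunits, Itga11, a receptor of fibroblasts, was higher on both tested probes. ILMN_2844032 gave 5.53, 5.54 and 5.69 in hSRY-OFF against 6.71, 6.44 and 6.31 in hSRY-ON hearts, a rise of 0.90 (SE 0.14, limma adjusted p = 0.0035). ILMN_2701778 gave 6.40, 6.32 and 6.53 against 8.43, 6.90 and 7.33, a rise of 1.14 (SE 0.35, limma adjusted p = 0.046). Without background correction the rises were 0.28, which was called, and 0.55, which was not (limma adjusted p = 0.055). The groups did not overlap on either probe, but hSRY-ON replicate 1 stood above the other two on the second. The call of the second probe was lost without hSRY-OFF replicate 1 (adjusted p = 0.11), 2 (0.11) or 3 (0.076) or hSRY-ON replicate 3 (0.072). Itga1, the other tested collagen-binding subunit, lay lower in each hSRY-ON heart, with a difference of -0.42 (95% interval -0.74 to -0.10), just outside the threshold (limma adjusted p = 0.055). The summed level of 7 fibroblast markers was 32.1 to 35.2 in hSRY-OFF against 29.6 to 33.0 in hSRY-ON hearts, so the groups overlapped. Of the 7 markers, 1 was called higher (14.3%, near the 13.8% of all tested probes), Tcf21, which rose by 0.76. Lum (-0.43), Dpt (-0.43), Dcn (-0.30), Pdgfra (0.41), Col1a1 (0.05) and Col1a2 (0.10) were not called. All 7 markers were detected, and the part of these cells in the rise of Itga11 was not tested.

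Itga3, the alpha subunit of a receptor for the epithelial laminin, gave 8.16, 8.19 and 7.87 in hSRY-OFF against 9.35, 8.59 and 8.61 in hSRY-ON hearts. All 3 hSRY-ON hearts were higher, with replicate 1 the highest, and the rise was 0.77 (SE 0.22, limma adjusted p = 0.038). This call was lost without any 1 of the 3 hSRY-OFF replicates (adjusted p of 0.081, 0.071 and 0.089) or without hSRY-ON replicate 1 (0.066). Itgb4, the beta partner of alpha6 in hemidesmosomes, was not called on either probe, at 0.37 (limma adjusted p = 0.079) and 0.18. The first of these, ILMN_3144575, was called without hSRY-OFF replicate 3, at 0.47 (limma adjusted p = 0.042). The remaining tested subunits, Itga9 and the platelet subunit Itga2b, were not called, with log2 differences from -0.60 to 0.39.

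Of the remaining integrin probes, those of Itga4 and another of Itga11 were above background on no array, and that of Itga2 was on 2. In all, 19 of the 40 integrin probes were tested, for 12 of 24 subunits. Of these, 9 were called (47.4%, against 27.5% over all tested probes), 5 higher for 4 genes and 4 lower for 2 genes. The median log2 fold change of the tested integrin probes was 0.18, beside -0.0046 over all tested probes. Without hSRY-OFF replicate 1 or replicate 2 the count was 4, where 16 and 17 probes were tested and 2 of the Itgb6 probes no longer had 3 arrays above background. Without hSRY-OFF replicate 3 it was 6. Among the 15 integrin probes above background on all 6 arrays, 6 were called (40%), against 27.4% of such probes of the array.

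The 15 probes of 7 leukocyte integrin genes were at background, 12 of them on all 6 arrays and the other 3 on all but 1 array. Itgam, Itgax, Itgb2, Itgb2l and Itgb7 were above background in no heart. The probe list of macrophage markers, by contrast, was higher in hSRY-ON hearts for 6 of 8 genes (75%, against 13.8% of all tested probes). Its summed level was 3.92 to 5.01 in hSRY-OFF against 8.64 to 9.21 in hSRY-ON hearts. Cd14 had the largest rise, 1.30, while Csf1r (0.40) and Emr1 (-0.21) were not called. Itgam and Itgb2, the integrin of macrophages and neutrophils, thus gave no value on this array to set beside these markers.

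**Figure D2:**
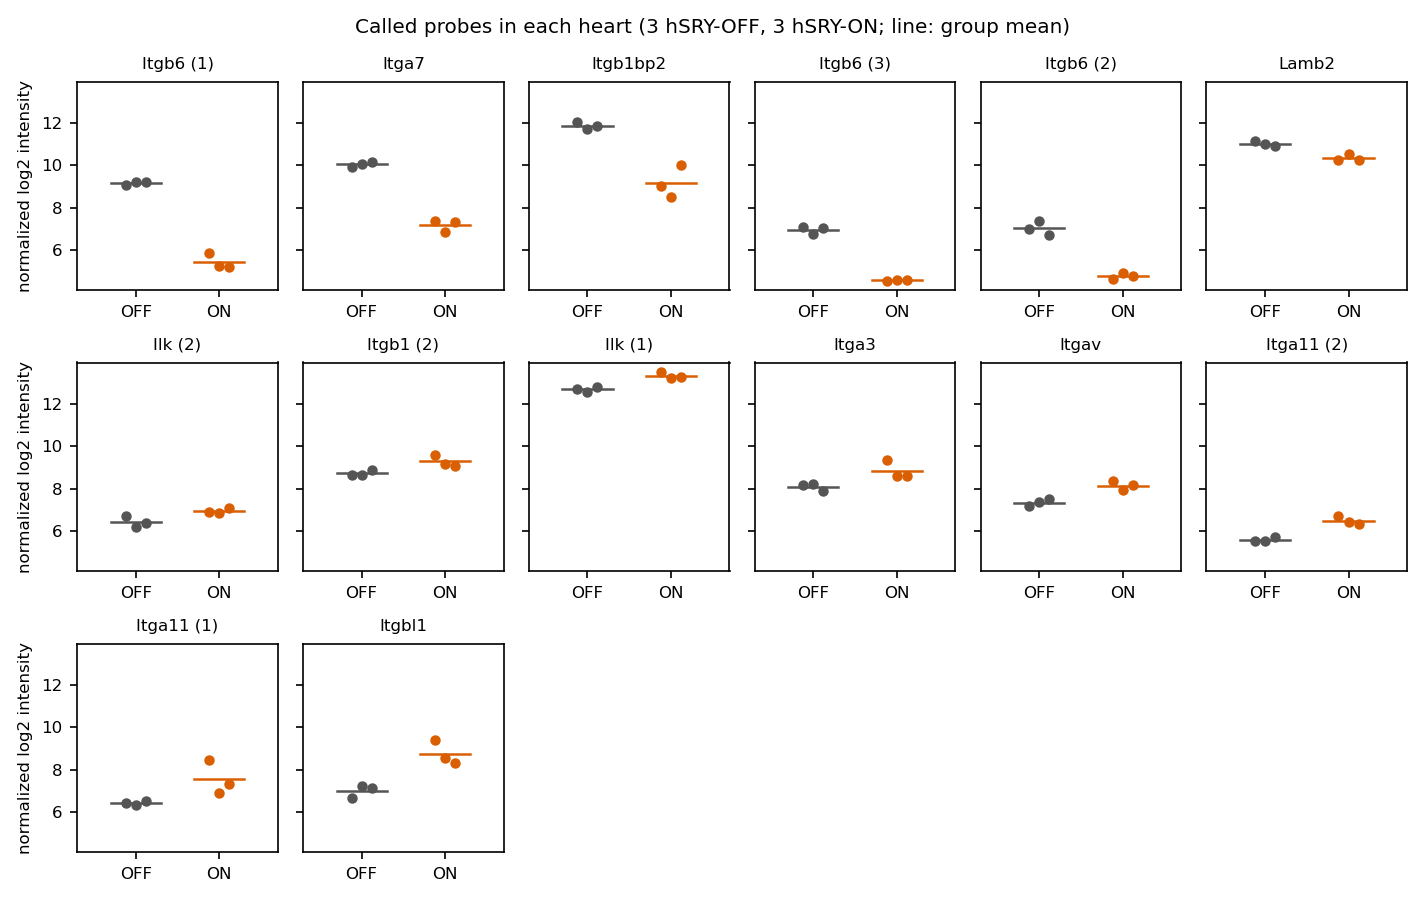
Normalized log2 intensity (vertical axis) of the 14 called probes in each of 3 hSRY-OFF (grey) and 3 hSRY-ON (orange) hearts, with a line at each group mean and panels ordered from the largest fall to the largest rise. The groups do not overlap in any panel, and the spread within hSRY-ON is widest for Itga11 (1) and Itgb1bp2, with SD of 0.79 and 0.76.

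Of the tested chains of muscle and vessel laminins, only Lamb2 was called. This beta2 chain of synaptic and muscle basement membranes gave 11.14, 11.00 and 10.90 in hSRY-OFF against 10.23, 10.52 and 10.26 in hSRY-ON hearts. It was lower in all 3 hSRY-ON hearts, with no overlap and a difference of -0.68 (SE 0.13, limma adjusted p = 0.0092), or 1.60-fold. Lama2, the alpha chain of muscle laminin, gave 10.51, 10.49 and 10.17 against 10.10, 10.18 and 9.99, so that hSRY-ON replicate 2 lay just above the lowest control. It was not called, at -0.30 (95% interval -0.62 to 0.02, limma adjusted p = 0.14). Lama4, the alpha chain of vessels, gave 6.13, 5.70 and 6.35 against 5.84, 6.11 and 6.15, which overlapped, and Lamc1, the gamma chain common to these laminins, gave 12.12, 12.09 and 12.06 against 12.13, 12.23 and 12.15. Neither was called, and the 95% intervals of the difference were -0.46 to 0.41 for Lama4 and -0.17 to 0.33 for Lamc1. Lamb1, listed as Lamb1-1, and Lama1 were above background on no array, and Lamc3 was on 1 array for 1 of its probes. Lamb3, a beta chain of epithelial laminin, differed by -0.04 (95% interval -0.49 to 0.41, limma adjusted p = 0.90). Of the 9 laminin probes, 5 were tested, for 5 of 8 genes. Of these, 1 was called (20%, against 27.5% over all tested probes), and the median log2 fold change was -0.04. Without normalization between arrays Lamb2 was not called either, at -0.77 (limma adjusted p = 0.070).

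Ilk, the scaffold of the kinase complex, was higher in hSRY-ON hearts on both probes. ILMN_2842137 gave 12.72, 12.56 and 12.81 in hSRY-OFF against 13.50, 13.22 and 13.24 in hSRY-ON hearts, a rise of 0.63 (SE 0.14, limma adjusted p = 0.013), or 1.54-fold. ILMN_2662428 gave 6.70, 6.19 and 6.38 against 6.88, 6.87 and 7.07, a rise of 0.51 (SE 0.16, limma adjusted p = 0.047), or 1.43-fold. The groups did not overlap on either probe. The second probe lay at the threshold, and its call was lost without hSRY-OFF replicate 2 (adjusted p = 0.13) or 3 (0.089) and without hSRY-ON replicate 1 (0.095), 2 (0.082) or 3 (0.12), which left 1 call in the complex each time.

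The partners of Ilk in the complex were not called. Parva, the parvin of most tissues, gave 11.19, 11.05 and 11.24 in hSRY-OFF against 11.62, 11.30 and 11.40 in hSRY-ON hearts, all 3 above the controls, with a difference of 0.28 (95% interval -0.03 to 0.59, limma adjusted p = 0.15). Parvg, the parvin of blood cells, gave 5.53, 6.01 and 6.29 against 6.01, 6.12 and 6.74, which overlapped. For Lims2, which encodes PINCH2, the values on ILMN_2738345 were 11.56, 11.43 and 11.68 against 11.30, 11.79 and 11.35. Its other probes, ILMN_1247916 with 10.49, 10.39 and 10.63 against 10.38, 11.18 and 10.72, and ILMN_2942674 with 10.50, 10.60 and 10.20 against 10.08, 10.56 and 10.22, also overlapped. The differences on the 3 probes were -0.07, 0.26 and -0.15, so they did not share a sign. Both probes of Lims1 were above background on no array, and Parvb was not analysed here. In all, 2 of 7 tested probes of the complex were called (28.6%), near the 27.5% over all tested probes.

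Of the other genes with an integrin or ILK name, Itgbl1, which encodes a secreted protein with the repeats of beta integrins, rose most. It gave 6.67, 7.22 and 7.13 in hSRY-OFF against 9.38, 8.54 and 8.31 in hSRY-ON hearts, and every hSRY-ON heart was over 1 log2 unit above the controls. The rise was 1.74 (SE 0.29, limma adjusted p = 0.0042), or 3.34-fold, and was 1.06 without background correction. Itgb3bp (0.38, limma adjusted p = 0.053), Itgb1bp1 (0.20) and Ilkap (0.13), a phosphatase that binds ILK, were not called.

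Genes that work with these families were counted in 5 lists, with 1 probe per gene. Their shares stand beside 27.5% called over all tested probes, 13.8% higher and 13.7% lower. Of the partners of laminin in the basement membrane, 15 of 17 were tested, and 7 were higher (46.7%) and none lower by limma. None was lower (0 genes) at an unadjusted p under 0.05 either. Fras1, counted among the 7, owed its place in the test to the hSRY-ON hearts, as no hSRY-OFF heart gave a detected signal. Its call was thus bound to differ from the start, and the 46.7% was not recounted without it. By the bound, Fras1 was at least 1.89-fold higher, and its limma adjusted p of 0.0012 belongs to the fitted difference of 1.31. Col4a6, a chain of collagen IV, had the largest rise, 1.81 (95% interval 1.52 to 2.10, limma adjusted p = 0.00013), while the nidogens Nid1 (0.23) and Nid2 (0.38) and perlecan, Hspg2 (0.13), which bind laminin directly, were not called. Of 10 tested laminin receptors other than integrins, with the tetraspanins, 3 were higher and 1 was lower (40% called), with Sdc4, a syndecan of focal adhesions, at 1.46 (limma adjusted p = 0.00038) and Bcam, a receptor of the alpha5 laminins, at -0.81 (limma adjusted p = 0.0059). Dystroglycan, Dag1, was not called (0.35, limma adjusted p = 0.24).

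Of 30 tested activators of integrins and adaptors of focal adhesions, 6 were higher and none lower by limma. That was 20% called, below the 27.5% over all tested probes. At an unadjusted p under 0.05, 2 were lower. The largest rise was that of Ptk2b, a kinase related to focal adhesion kinase, at 1.48 (limma adjusted p = 0.00080) from hSRY-OFF values above background on 1 of 3 arrays, and the core members talin, Tln1 (0.34), kindlin 2, Fermt2 (0.03), and vinculin, Vcl (0.20), were not called. Of 15 tested integrin ligands other than laminins and collagens, 8 were higher and 2 lower (66.7% called), with Ctgf, a matricellular ligand, rising by 1.50 (limma adjusted p = 0.0020) and Vtn, which encodes vitronectin, a ligand of alphaV integrins made mainly by liver, falling by 2.79 (limma adjusted p = 0.00053) to hSRY-ON values above background on 1 of 3 arrays. Of 9 tested signaling partners of ILK, none was higher by limma (0 at an unadjusted p under 0.05) and 2 were lower. That was 22.2% called, against 27.5% over all tested probes. The 2 included Akt2, a kinase of insulin signaling, above background in all 3 hSRY-OFF hearts and in no hSRY-ON heart. Akt2 was thus at least 1.28-fold lower, and its limma adjusted p of 0.015 belongs to the fitted difference of -0.70. It passed the filter through hSRY-OFF alone and was bound to differ. The other was Nck1, at -0.56, which lay at the threshold (limma adjusted p = 0.0499). The median log2 fold changes of the 5 lists, in this order, were 0.38, 0.18, 0.26, 0.58 and 0.12.

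**Figure D3:**
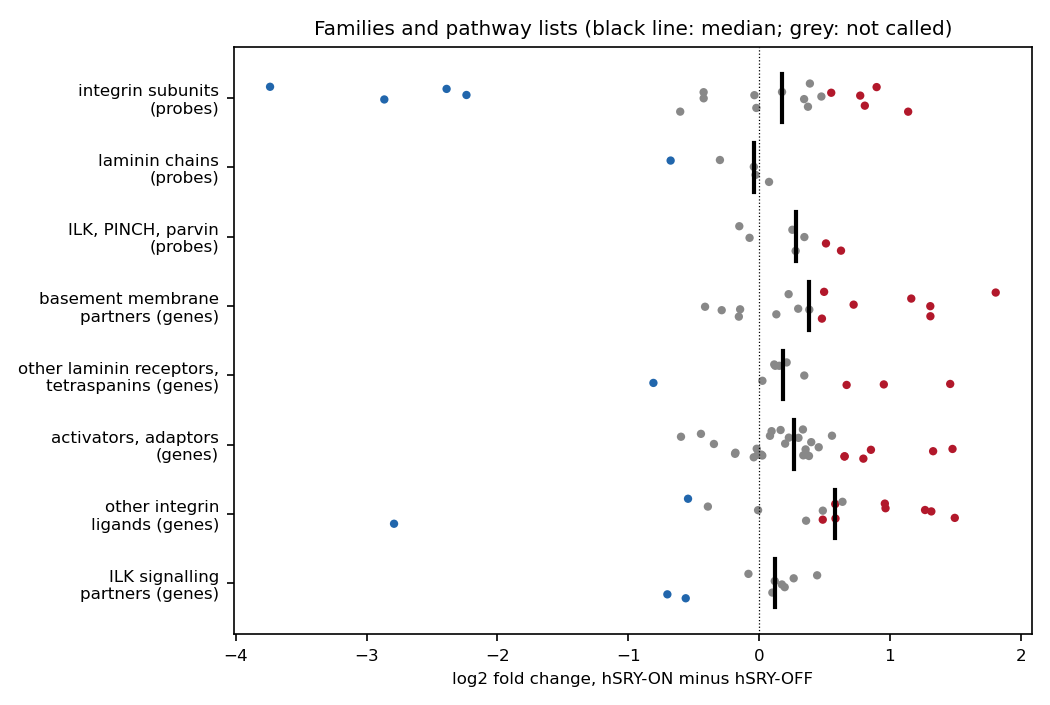
Log2 fold change (hSRY-ON minus hSRY-OFF, horizontal axis) of tested probes of the 3 families and of tested genes of the 5 pathway lists, in red where higher, blue where lower and grey where not called, with a black line at the median. Fras1, at 1.31, Akt2, at -0.70, and the Itgb6 probes at -2.39 and -2.24 were above background in 1 group only. Their points are fitted differences and not bounds. The points of the integrins spread from -3.74 to 1.14, whereas the basement membrane partners reach 1.81 with no gene called lower.

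**Figure D4:**
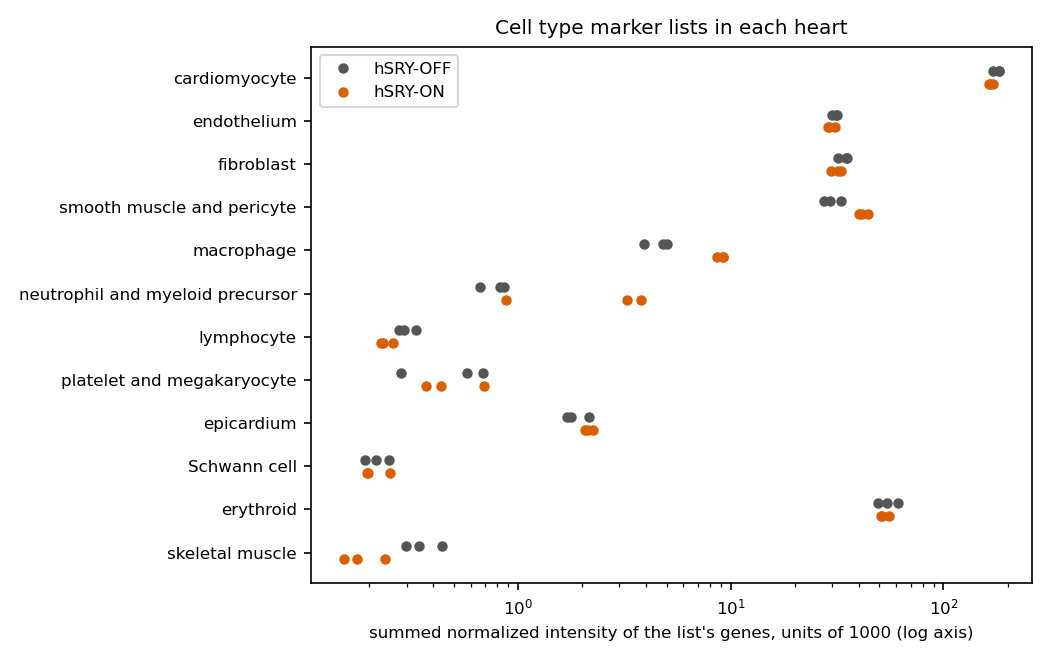
Summed normalized intensity (units of 1000, log axis) of each cell type marker list in the 3 hSRY-OFF (grey) and 3 hSRY-ON (orange) hearts. The macrophage sums lie at 8.64 to 9.21 in hSRY-ON and 3.92 to 5.01 in hSRY-OFF hearts, while the cardiomyocyte, endothelial and fibroblast sums overlap between the groups. Still, 4 of 8 cardiomyocyte genes were called lower (50%, against 13.7% of all tested probes). Of 8 tested endothelial genes, 3 were called lower and 2 higher (62.5% called, against 27.5% of all tested probes).

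The sums of smooth muscle and pericyte markers did not overlap either, at 27.5 to 33.2 in hSRY-OFF against 40.3 to 44.2 in hSRY-ON hearts. Of 6 tested genes, 2 were higher (33.3%, against 13.8% of all tested probes), Tagln by 1.81 and Acta2 by 0.53. Cnn1 was above background on no array. The sum is made up mostly of Acta2, and Myh11 (-0.42), Pdgfrb (-0.43), Rgs5 (-0.57) and Cspg4 (0.47) were not called, with a median of 0.02 over the 6 genes. The part of these cells in the rises of Itgav, Itgb1 and Ilk, genes used by smooth muscle as by most cells, was not tested. The arrays detected 12138 to 13172 probes each. Array correlations were 0.983 to 0.992 within hSRY-OFF, 0.985 to 0.988 within hSRY-ON and 0.940 to 0.960 between the groups. Before normalization, hSRY-OFF replicate 3 was the dimmest array, with a median intensity of 156, against 188 and 201 on the other hSRY-OFF arrays. It also had the fewest detected probes, 12138.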

How the data were processed

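Bead intensities of 25697 probes in the hearts of 3 hSRY-ON and 3 hSRY-OFF mice were taken, with groups from the sample labels. As deposited by the authors, each intensity is the mean over beads of a probe on a linear scale, without normalization. The authors also deposited its detection p-value, set against negative-control beads. The lowest intensity of an array was 110 to 135. The submitters' processing notes name limma and the methods name TCC; its settings are not given in the sources used here. The replicates are described as biological triplicates.

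The intensities were processed in R 4.3.3 with limma 3.58.1. Neqc was run with background correction by detection p-value, quantile normalization, an offset of 16 and log2 values. Probes with a detection p-value under 0.05 on at least 3 of the 6 arrays (12970) entered lmFit and eBayes with no term but the group, and the two-sided p-values were corrected together by the Benjamini-Hochberg method. Intervals are 95%. Gene lists use the probe with the highest mean per gene. Signal over background sets the depth of an array, with median intensities of 156 to 201, and 3 arrays per group limit the precision. The background correction, normalization, probe filter and fit were also tested on simulated data, with 200 changed probes. No pair of arrays was identical.

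Values are given in each heart for called probes among the 8 largest rises and 8 largest falls, for the integrins and laminins of cardiac muscle, for the ILK complex and for Itgb1bp2, and of each list for the called genes with the largest rise and fall. Other genes, such as Itga1, Itga9, Itgb4, Itgb5, Nid1, Dag1, Tln1, Csf1r, Myh11, Tnni3 and Acta2, were named after their values were seen. The members and lists were chosen with earlier results of these data known. A gene that the name rule matches is not reported here and enters no count of members. Alternatives changed the background correction, the normalization, the probe filter, the variance model and the replicates, or added a replicate block. Plots used matplotlib 3.10.9 in Python 3.11.15. Symbols were matched to RefSeq (GRCm38.p6), also through synonyms. By such a match a probe with the symbol Sox21 stood for Sox10 in the Schwann cell list, above background on no array.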

Additional observations from a re-analysis of the deposited data

How the results depend on the processing

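No called member probe reversed under the 16 alternatives, and 6 of 14 kept their call under all that tested them, namely Itga7, Itgb1bp2, Itgbl1 and the 3 probes of Itgb6. Of the others, 8 lost it at least once, and 4 uncalled probes gained one. Without normalization between arrays the calls fell to 5 integrin, 0 laminin and 0 ILK complex probes (limma, with 1 laminin and 0 ILK complex probes at an unadjusted p under 0.05), from 29 to 15 pathway genes and to 1897 of all probes, 731 higher and 1166 lower, with the median of all tested probes at -0.12; scaling to the median of detected probes gave 2357 higher and 1229 lower, with that median at 0.09. The cause was not tested. The ILK complex had 1 call without background correction, without the probe filter, with an intensity trend and with the replicate block. Leaving out 1 replicate gave 4 to 8 integrin calls, 1 laminin call throughout, 1 to 2 ILK complex calls and 2206 to 3669 calls over all probes, and a median log2 fold change of -0.205 to 0.070 for the laminin chains, with 2206 without hSRY-OFF replicate 1 and 2255 without hSRY-ON replicate 1. Same-numbered hearts did not deviate together, with correlations of -0.02, 0.04 and -0.07, beside -0.06 to 0.09 for unlike numbers. With 3 hearts per group these values cannot decide whether the numbers pair the samples. With the replicate block 7 integrin, 1 laminin and 1 ILK complex probes and 2842 of all probes were called. The block lost 3 member calls (Ilk ILMN_2662428, Itga11 ILMN_2701778 and Itgb1 ILMN_2609304). Without background correction the fitted differences of probes near background were smaller, such as -1.90 in place of -3.74 for Itgb6 ILMN_2805372. The alternatives for the pathway genes were chosen after seeing the data. Member probes near background, 28 of 64 untested, carry no measured change.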
